A study of Caenorhabditis elegans with 4 samples.

Results

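Chromosome IV of the nematode Caenorhabditis elegans was divided into 18 consecutive bins of 1 Mb, numbered from 0, and the small RNA reads of each bin were counted by strand. Each strand of a bin is treated as one region, a strand-bin, which gives 36 strand-bins of the 208 in the whole genome. They were chosen by position alone, as all bins of the chromosome. Bins 4 to 6 (chrIV:4000001-7000000, ce11) and bins 13 to 17 (chrIV:13000001-17493829), which hold the piRNA clusters, were set against the other 10 bins. The reads came from 4 small RNA libraries made from PRG-1 protein precipitated through its V5 tag from lysates of whole adult hermaphrodites grown at 25 °C. Of these libraries 2 were prg-1(∆PAZ-domain), in which the tagged protein lacks its PAZ domain, and 2 were wild type, in which the tagged protein is complete. Whether the replicates of a genotype were separate cultures is not stated, and the spread between samples that the p-values rest on may therefore be technical. Small RNAs were recovered from whole animals, so fewer germ cells, less precipitated PRG-1 and less small RNA per PRG-1 cannot be told apart in these reads.

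PRG-1 is the Piwi-type Argonaute of the worm germline and carries piRNAs, also called 21U-RNAs. In this species most piRNAs are transcribed as very short, separate genes, each with its own promoter, and the great majority of these genes crowd into a pair of broad clusters on chromosome IV, on both strands and between and inside protein-coding genes. The PAZ domain of an Argonaute is the pocket in which the 3' end of the bound small RNA sits. MicroRNAs, which also lie on this chromosome, are carried by other Argonautes (ALG-1 and ALG-2) and are among the most abundant small RNAs of the animal.

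Levels are given in RPM, reads per 1000000 genome-mapped reads, and on a second scale relative to the reads outside the single strand-bin with the most reads. That strand-bin is the plus strand of chrI:15000001-16000000, with 4 annotated ribosomal RNA genes. Its share of all mapped reads was 29.6% and 61.2% in the mutant libraries and 63.2% and 67.1% in the wild type libraries. Genome-mapped reads numbered 7819170 and 14430880 in the mutant and 6461936 and 8416474 in wild type. The lowest count of any strand-bin of chromosome IV was 1436 reads, or 184 RPM with a 95% Poisson interval of 174 to 193, which covers counting error only. On the second scale every strand-bin of chromosome IV had a lower log2 fold change (mutant over wild type), by unequal amounts. It went from 2.94 to 2.14 on the plus strand of bin 3 and from -0.31 to -0.67 on that of bin 8. The median log2 fold change over the 208 strand-bins was -0.09 per genome-mapped read, and -0.60 on the scale of reads outside the largest strand-bin. Changes below are to be read against these medians.

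The annotation bears out the names of the bins. Chromosome IV holds 14714 of the 15363 annotated piRNA genes of the genome, and 14401 of them start in the cluster bins. The 16 strand-bins of the clusters are also the only ones of the genome with at least 100 piRNA genes, and outside chromosome IV no strand-bin holds more than 14. Bins 13 to 17 hold 11574 piRNA genes, from 209 on the plus strand of bin 17 to 1812 on the plus strand of bin 15. Bins 4 to 6 hold 2827, from 130 on the plus strand of bin 4 to 869 on the minus strand of bin 5. At the edges, bin 4 has 279 piRNA genes over both strands and bin 3 before it has 8, bin 6 has 910 and bin 7 after it has 79, and bin 13 has 1127 and bin 12 before it has 41. Bin 17 is the end of the chromosome, with its last annotated base at 17493829, so it spans less than the 1 Mb of the others. The chromosome also carries 50 annotated miRNA genes, in 26 of its 36 strand-bins.

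The reads along the chromosome made a broad hill over bins 14 to 16 in wild type, on both strands. No such hill was seen in the mutant. On the plus strand, bins 15 and 16 each held 159 to 533 RPM in the mutant libraries and 2201 to 3340 RPM in wild type. The plus strand of bin 14 was high in both genotypes. Bin 13 was lower in wild type, with 1309 and 1130 RPM on its plus strand. The minus strand of bin 4 had 1161 and 1174 RPM there. On the minus strand of bins 13 to 16, each strand-bin held between 218 and 680.0 RPM in the mutant libraries and between 1263 and 3029 RPM in the wild type libraries. A few sharp peaks stood in both genotypes and coincided with strand-bins that hold well-known miRNA genes on that same strand. These were the plus strand of bin 3, with mir-58a, of bin 5, with mir-228, and of bin 14, with mir-52, and the minus strand of bin 11, with mir-51, mir-53 and mir-59. A lower peak stood on the plus strand of bin 8, which holds no annotated miRNA gene. It had 1219 and 3146 RPM in the mutant and 2709 and 2719 RPM in wild type. Since 26 of the 36 strand-bins hold a miRNA gene, such overlap is common on this chromosome.

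**Figure D1:**
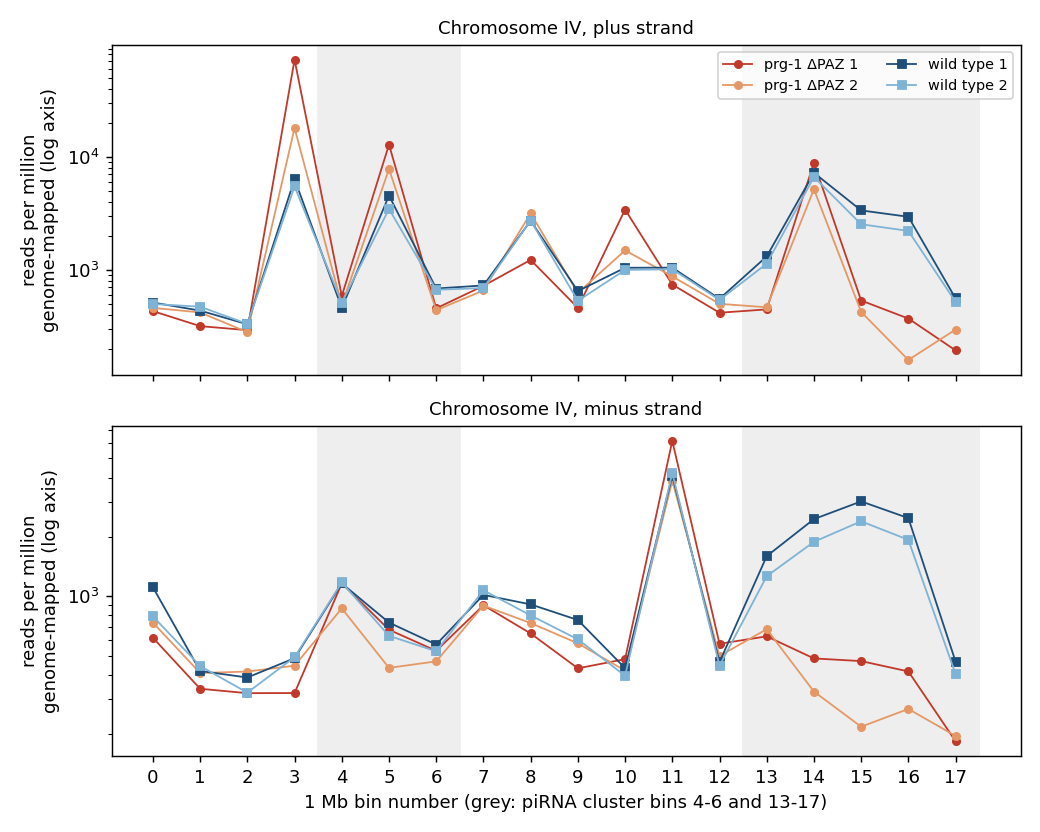
RPM (log axis) in each 1 Mb bin of chromosome IV, plus strand above and minus strand below, with 1 line per library (red and orange, prg-1 ∆PAZ; dark and light blue, wild type) and cluster bins in grey. In bins 13, 15, 16 and 17 on both strands, and on the minus strand of bin 14, both mutant lines lie below both wild type lines. Both mutant libraries lay below in 40.9% of all strand-bins of the genome.

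Among the cluster strand-bins, the 4 of bins 15 and 16, the core of the right-hand cluster, had the lowest log2 fold changes. With 6469 piRNA genes, these bins together held 1786 and 1067 RPM in the mutant and 11794 and 9053 RPM in wild type, a mutant mean at 13.7% of wild type. Among the 36 strand-bins of the chromosome ranked by reads, the 4 strand-bins of this core stood at places 5 to 9 in both wild type libraries. In mutant replicate 1 they stood between places 17 and 29, and in mutant replicate 2 between places 25 and 36. Ranks need no library size, so this shift does not depend on the scale.

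On the plus strand of bin 15, with 1812 piRNA genes and the miRNA gene mir-78, the mutant libraries had 533 and 423 RPM and the wild type libraries 3340 and 2520 RPM. It fell by 2.62 on the log2 scale (SE 0.28, edgeR adjusted p = 0.0353). The plus strand of bin 16, with 1438 piRNA genes and no miRNA gene, had 369 and 159 RPM in the mutant and 2935 and 2201 RPM in wild type. Its log2 fold change of -3.28 ± 0.51 (SE) was the lowest of the 36 per genome-mapped read, at an edgeR adjusted p of 0.0566, and lay between -4.01 and -2.80 over the omissions of single libraries. It passed with either mutant replicate left out, but not with either wild type replicate left out. The mutant libraries lay 2.32-fold apart there and the wild type libraries 1.33-fold.

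On the minus strand, bin 15 has 1707 piRNA genes, mir-1833 and mir-2217b-3. It held 468 and 218 RPM in the mutant and 3029 and 2399.8 RPM in wild type. The log2 fold change was -2.98 ± 0.46 (SE), at an edgeR adjusted p of 0.0566. Bin 16 has 1512 piRNA genes, mir-8198, mir-1021 and mir-789-1 on this strand. It had 415 and 268 RPM in the mutant and 2491 and 1933 RPM in wild type. It fell by 2.70 on the log2 scale (SE 0.32, edgeR adjusted p = 0.0353). In all 4 strand-bins both mutant libraries lay below both wild type libraries, as in 40.9% of all strand-bins of the genome. Per read outside the largest strand-bin all 4 passed: their log2 fold changes lay between -3.97 and -3.18, and the highest edgeR adjusted p was 2.71e-06. The SE was larger on this scale, between 0.57 and 0.60, and the test shares spread across strand-bins. These p-values therefore do not rest on the replicates of each strand-bin alone. Over the omissions of single libraries these log2 fold changes stayed between -4.16 and -2.94. The calls themselves rested on both wild type libraries: with either one left out, most or all of them were lost.

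Bin 14 differed by strand. Its minus strand, with 1718 piRNA genes, mir-798 and mir-2217b-3, held 483 and 328 RPM in the mutant and 2462 and 1888 RPM in wild type, and fell by 2.42 on the log2 scale (SE 0.30, edgeR adjusted p = 0.0353). Its plus strand holds almost as many piRNA genes, 1758, and also mir-52 (chrIV:14034008-14034107), a member of the abundant mir-51 family. There the mutant had 8841 and 5138 RPM and wild type 7184 and 6599.6 RPM, the groups overlapped, and the log2 fold change was 0.02 ± 0.41 (SE, edgeR adjusted p = 0.989). Per read outside the largest strand-bin its log2 fold change was -0.62, close to the median of all strand-bins on that scale. There both mutant libraries lay below both wild type libraries, as in 62.0% of all strand-bins. The count of a strand-bin does not separate its genes, and the share of mir-52 and of piRNAs in it was not measured.

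The outer bins of this cluster hold fewer piRNA genes and differed less. In bin 13, whose plus strand has 573 piRNA genes, that strand held 445 and 464 RPM in the mutant and 1309 and 1129.7 RPM in wild type and fell by 1.42 on the log2 scale (SE 0.15, edgeR adjusted p = 0.0353). The minus strand of bin 13, with 554 piRNA genes, had 626 and 680.0 RPM in the mutant and 1597 and 1263 RPM in wild type (log2 fold change -1.13 ± 0.20 SE, edgeR adjusted p = 0.0719). Neither strand of bin 13 holds an annotated miRNA gene. In bin 17 the minus strand has 293 piRNA genes, mir-1832b and mir-789-2. It held 184 and 195 RPM in the mutant and 466 and 402 RPM in wild type. It fell by 1.19 on the log2 scale (SE 0.13, edgeR adjusted p = 0.0353). This call was lost per read outside the largest strand-bin, at a log2 fold change of -1.70 (edgeR adjusted p = 0.193). The plus strand of bin 17, with 209 piRNA genes, had 193 and 295 RPM in the mutant and 556 and 518 RPM in wild type (log2 fold change -1.14 ± 0.23 SE, edgeR adjusted p = 0.0928). In bins 13 and 17, too, both mutant libraries lay below both wild type libraries on both strands, as in 40.9% of all strand-bins.

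In all, edgeR's quasi-likelihood test at an adjusted p under 0.05 called 5 of the 36 strand-bins of chromosome IV lower in the mutant per genome-mapped read and 0 higher, and all 5 lay in bins 13 to 17. Over all 208 strand-bins of the genome 2.40% were lower and 0.00% higher, so no strand-bin of another chromosome passed. At an unadjusted p under 0.05, 10 strand-bins of chromosome IV were lower and 3 higher, against 27 and 21 of all 208 strand-bins. DESeq2 also called 10 of the 36 lower and 3 higher, against 13.9% and 11.5% of all. Per read outside the largest strand-bin, edgeR called 6 of the 36 lower and 1 higher, against 3.85% and 0.962% of all strand-bins. The median log2 fold change of the 10 strand-bins of bins 13 to 17 was -1.92 per genome-mapped read, against -0.09 over all strand-bins. In 9 of these 10, both mutant libraries lay below both wild type libraries, as did 40.9% of all strand-bins, and in 0 both lay above, as in 16.3% of all. On the other scale, 10 of 10 had both mutant libraries below, against 62.0% of all strand-bins, and 0 had both above, against 7.21%. The calls rested on both wild type libraries. With either wild type library left out, the spread was estimated from the mutant pair alone. The calls on chromosome IV per genome-mapped read were then lost. Without mutant replicate 1 or 2 more strand-bins were called, over the whole genome as well as on chromosome IV. The fold changes moved far less, with the 5 called strand-bins staying between -3.05 and -1.09 over these omissions.

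**Figure D2:**
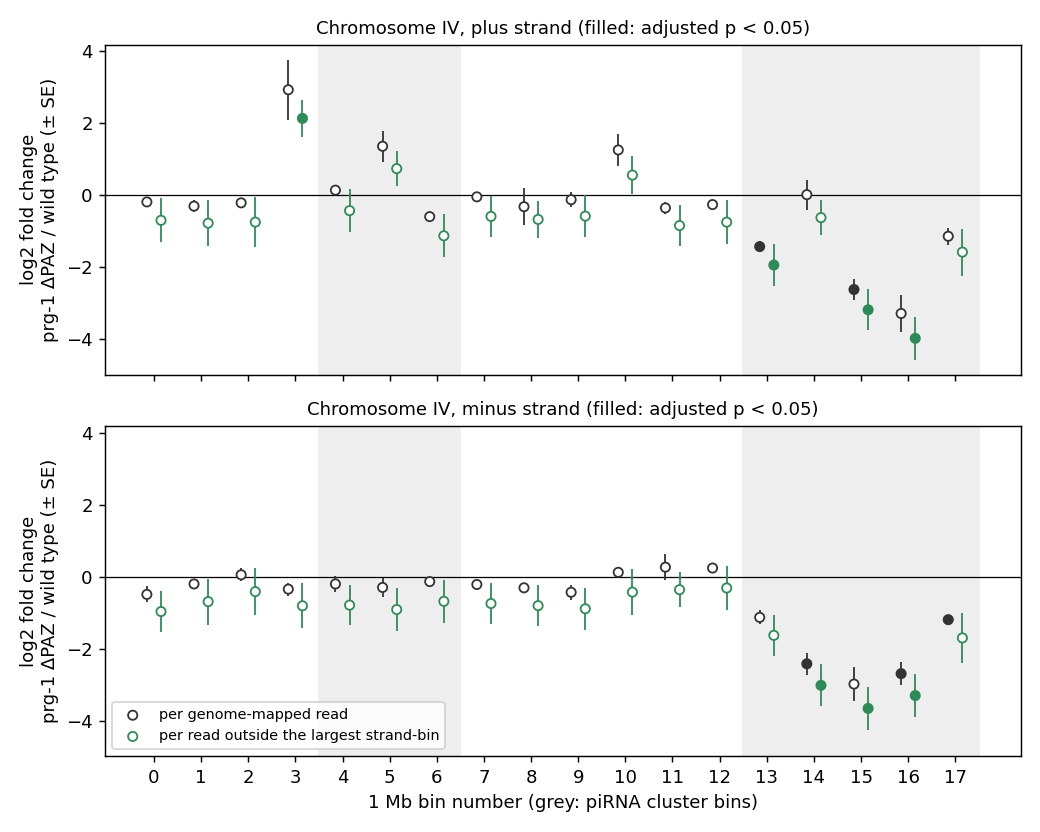
Log2 fold change, prg-1 ∆PAZ over wild type, of each strand-bin of chromosome IV (points, with bars for ± 1 SE from edgeR) with library size taken as genome-mapped reads (black) or as reads outside the largest strand-bin (green), by bin number. Filled points passed an adjusted p of 0.05, and the filled points below 0 all lie in bins 13 to 17.

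Summed over bins 13 to 17, the mutant libraries held 12557 and 8168 RPM and the wild type libraries 25368 and 20854 RPM. Each mutant sum was below each wild type sum, with a log2 difference of -1.18 and an exact two-sided permutation p of 0.33. This is the smallest p that 2 against 2 libraries allow, here and in each such test below. The strand-bin with mir-52 made up 66.7% ± 5.3 of this sum in the mutant and 29.98% ± 2.35 in wild type (SD, n = 2 each). Without it, the 9 remaining strand-bins, with 9816 piRNA genes, summed to 3717 and 3030 RPM in the mutant and 18184 and 14255 RPM in wild type, a log2 difference of -2.26 (exact permutation p = 0.33). Per read outside the largest strand-bin the log2 differences were -1.77 for the whole sum and -2.85 without the strand-bin with mir-52. The median of the strand-bins outside the clusters was 526 and 599 RPM in the mutant and 685 and 572 RPM in wild type. The sum of the 9 strand-bins minus 9 times this median was -1021 and -2365 RPM in the mutant and 12017 and 9109 RPM in wild type. Of the 9 strand-bins, 2 and 1 lay above this median in the mutant libraries and 7 in each wild type library. The minus strand of bin 13 was above it in both mutant libraries, and both strands of the short bin 17 were below it in both wild type libraries.

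Bins 4 to 6 did not show such a hill in wild type. With medians taken over log2 RPM, those bins were at 1.03 and 1.13 times the strand-bins outside the clusters in the wild type libraries. Bins 13 to 17 were at 3.62 and 3.35 times. Of these 6 strand-bins 0 passed the edgeR threshold in either direction on either scale. At an unadjusted p under 0.05, 1 was lower and 1 higher per genome-mapped read, against 27 and 21 of all 208 strand-bins. DESeq2 called the same numbers of the 6, against 13.9% lower and 11.5% higher among all, and it called 0 of the 6 on the other scale. Their median log2 fold change was -0.17, close to the -0.09 of all strand-bins.

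The most abundant of the 6 was the plus strand of bin 5, with 769 piRNA genes, mir-790 and mir-228 (chrIV:5562025-5562122). It held 12760 and 7746 RPM in the mutant and 4517 and 3441 RPM in wild type. Both mutant libraries were thus above both wild type libraries, as in 16.3% of all strand-bins. The log2 fold change was 1.37 ± 0.43 (SE, edgeR adjusted p = 0.166). The minus strand of the same bin holds even more piRNA genes, 869, and also mir-8191, mir-2217a and mir-4815. It had 676 and 433 RPM in the mutant and 735 and 629 RPM in wild type. The groups overlapped per genome-mapped read (log2 fold change -0.30 ± 0.25 SE, edgeR adjusted p = 0.548). On the other scale both mutant libraries lay below both wild type libraries, as in 62.0% of all strand-bins. For comparison within the cluster, the plus strand of bin 6, with 458 piRNA genes and mir-8201, had 455 and 438 RPM in the mutant and 681 and 664 RPM in wild type. Here both mutant libraries were below both wild type libraries, as in 40.9% of all strand-bins. Replicates differed 1.04-fold in the mutant and 1.03-fold in wild type, at a log2 fold change of -0.59 ± 0.10 (SE, edgeR adjusted p = 0.0719). It was the strand-bin of this cluster that DESeq2 called lower.

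Per genome-mapped read the remaining 3 strand-bins overlapped between genotypes, as did 89 of all 208. The minus strand of bin 6, with 452 piRNA genes and the mir-58 relatives mir-58b and mir-58c among its miRNA genes, had 528 and 467 RPM in the mutant and 569 and 525 RPM in wild type. On the plus strand of bin 4, with mir-242 and mir-243, the levels were 585 and 486 RPM in the mutant and 459 and 509 RPM in wild type. On the minus strand of bin 4 they were 1162 and 868 RPM in the mutant and 1161 and 1174 RPM in wild type. These strand-bins had log2 fold changes between -0.20 and 0.15 per genome-mapped read. Per read outside the largest strand-bin, both mutant libraries lay below both wild type libraries in 4 of the 6 strand-bins of this cluster. That was so in 62.0% of all strand-bins. In 1 of the 6 both lay above, against 7.21% of all. A miss of the threshold does not show that piRNAs from bins 4 to 6 were equal in both genotypes.

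Summed over bins 4 to 6, the mutant libraries held 16166 and 10438 RPM and the wild type libraries 8121 and 6943 RPM, a log2 difference of 0.79 (exact permutation p = 0.33). The plus strand of bin 5 made up 76.6% ± 3.3 of this sum in the mutant and 52.6% ± 4.3 in wild type (SD, n = 2 each). Without it the direction turned. The other 5 strand-bins, with 2058 piRNA genes, summed to 3406 and 2691 RPM in the mutant and 3604 and 3502 RPM in wild type. That was a log2 difference of -0.23 (exact permutation p = 0.33). Per read outside the largest strand-bin the log2 differences were 0.20 for the whole sum and -0.82 without this strand-bin. The median of all strand-bins was -0.60 on that scale.

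**Figure D3:**
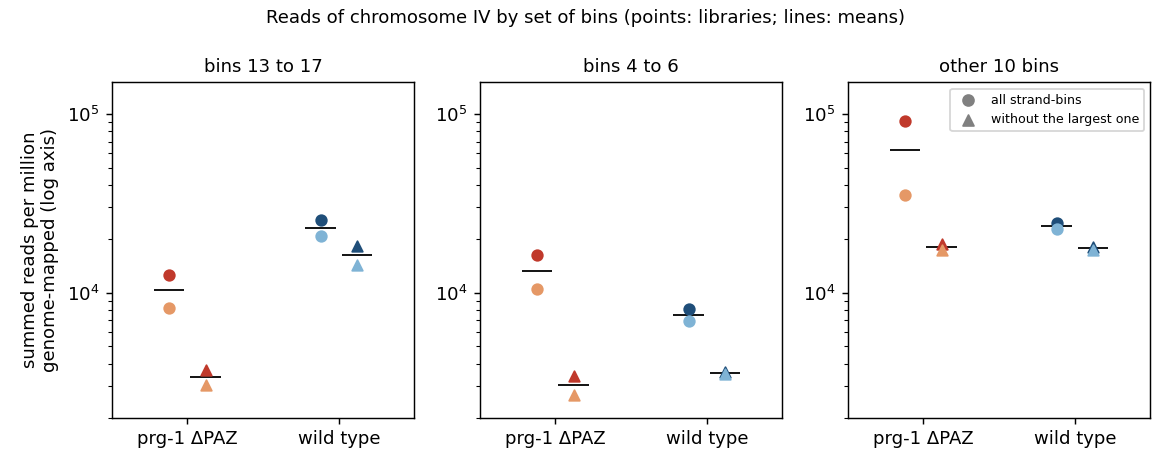
Summed RPM (log axis) of bins 13 to 17, bins 4 to 6 and the other 10 bins, with points for libraries, lines for means, circles for all strand-bins and triangles for the sum without the strand-bin with most reads. Without it, bins 13 to 17 stay apart between genotypes, bins 4 to 6 lie between 2691 and 3604, and the other bins between 17356 and 18756.

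The 20 strand-bins outside the clusters hold 313 piRNA genes, from 0 to 41 each. In the mutant they were dominated by the plus strand of bin 3, which has 5 piRNA genes and a single miRNA gene, mir-58a (chrIV:3233254-3233350), a relative of the insect microRNA bantam. This strand-bin held 563150 and 258159 reads in the mutant and 40788 and 45766 reads in wild type, which made 72022 and 17889 RPM in the mutant and 6312 and 5438 RPM in wild type. Both mutant libraries were above both wild type libraries, as in 16.3% of all strand-bins. The mutant libraries differed 4.03-fold, and the log2 fold change of 2.94 ± 0.84 (SE) had an edgeR adjusted p of 0.144. Per read outside the largest strand-bin the values were 102291 and 46067 in the mutant and 17143 and 16526 in wild type, and the strand-bin rose by 2.14 on the log2 scale (SE 0.51, edgeR adjusted p = 9.24e-04). That call was lost without wild type replicate 1 or 2, at log2 fold changes no lower than 1.45 over the omissions of single libraries, and with TMM or median-of-ratios factors. By reads it stood at place 3 of the 208 strand-bins of the genome in both mutant libraries, and at places 9 and 10 in the wild type libraries.

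The next most abundant strand-bins outside the clusters did not pass. The minus strand of bin 11, with mir-51 and mir-53 of the same family as mir-52 and also mir-59, had 6139 and 3852 RPM in the mutant and 4097 and 4222 RPM in wild type (log2 fold change 0.26 ± 0.36 SE, edgeR adjusted p = 0.710). On the plus strand of bin 8, which holds no annotated miRNA gene but 3 snoRNA genes and 1 snRNA gene, the levels were 1219 and 3146 RPM in the mutant and 2709 and 2719 RPM in wild type (log2 fold change -0.31 ± 0.51 SE, edgeR adjusted p = 0.739). In both the groups overlapped per genome-mapped read, and in bin 8 the mutant libraries lay on either side of wild type. On the other scale both mutant libraries lay below wild type in the strand-bin of bin 11, as in 62.0% of all strand-bins. Without mutant replicate 2 the strand-bin of bin 8 passed, at a log2 fold change of -1.15 (edgeR adjusted p = 0.00821), and without mutant replicate 1 it was at 0.21. Over the settings tried per genome-mapped read its edgeR or DESeq2 adjusted p ranged between 0.00821 and 0.976. The plus strand of bin 10, chosen after its values were seen because DESeq2 called it higher, holds mir-246, mir-2210 and mir-8208 and had 3399.7 and 1480.4 RPM in the mutant and 1039 and 994 RPM in wild type (log2 fold change 1.26 ± 0.45 SE, edgeR adjusted p = 0.199). Without mutant replicate 1 its log2 fold change was 0.54, and without mutant replicate 2 it was 1.74 and passed (edgeR adjusted p = 0.00144). Its adjusted p ranged between 0.00144 and 0.831 over the settings tried on that scale.

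Of the 20 strand-bins, 0 passed the edgeR threshold per genome-mapped read. At an unadjusted p under 0.05, 0 were lower and 2 higher, against 27 and 21 of all 208, and by DESeq2 0 were lower and 2 higher, against 13.9% and 11.5% of all. Their median log2 fold change was -0.21 on the scale of genome-mapped reads and -0.69 on the other, near the medians of all strand-bins. Summed, these bins held 90778 and 35291 RPM in the mutant and 24369 and 22794 RPM in wild type, a log2 difference of 1.26 (exact permutation p = 0.33). Without the plus strand of bin 3 the sums were 18756 and 17402 RPM in the mutant and 18057 and 17356 RPM in wild type. That was a log2 difference of 0.03 (exact permutation p = 0.67). Per read outside the largest strand-bin the log2 differences were 0.68 for the whole sum and -0.56 without this strand-bin. The median of all strand-bins was -0.60 on that scale.

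The clusters were also compared with the rest of the chromosome inside each library, which needs no library size. Medians were taken over log2 RPM here, and their differences were turned back into ratios. The median of the 16 cluster strand-bins was at 0.964 and 0.727 times the median of the 20 others in the mutant libraries and at 2.11 and 2.13 times in the wild type libraries. The log2 difference between genotypes was -1.34 (exact permutation p = 0.33), and the wild type libraries were almost equal in this ratio. For bins 13 to 17 alone the ratios were 0.871 and 0.520 in the mutant and 3.62 and 3.35 in wild type, a log2 difference of -2.37 (exact permutation p = 0.33). For bins 4 to 6 alone they were 1.20 and 0.795 in the mutant and 1.03 and 1.13 in wild type, so the groups overlapped (log2 difference -0.15, exact permutation p = 1.00). The contrast was also seen in the strand-bins without any annotated miRNA gene, 5 in the clusters and 5 outside. Of the 5 in the clusters, 4 lie in bins 13 to 17 and only 1 in bins 4 to 6. The ratios were 0.723 and 0.633 in the mutant and 1.29 and 1.49 in wild type (log2 difference -1.03, exact permutation p = 0.33).

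The strands of a bin share their library and their length, so the ratio of plus to minus reads is free of scale as well. In bins 15 and 16, where the strands hold similar numbers of piRNA genes, this ratio was 1.14 and 1.94 and then 0.889 and 0.594 in the mutant, and 1.10 and 1.05 and then 1.18 and 1.14 in wild type. The reads of this core were thus nearly even between strands in wild type. In bin 14 the ratio was 18.3 and 15.7 in the mutant and 2.92 and 3.49 in wild type, and in bin 5 it was 18.9 and 17.9 in the mutant and 6.15 and 5.47 in wild type. In bin 3 it was 223 and 40.3 in the mutant and 13.02 and 11.1 in wild type. In these 3 bins the strand with the abundant miRNA gene thus took a larger part of the reads in each mutant library than in each wild type library, and no test was run on the ratios.

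The level of a cluster strand-bin climbed with its number of piRNA genes in wild type. Over the 16 cluster strand-bins, Spearman's rho between the number of annotated piRNA genes and RPM was 0.121 and -0.206 in the mutant libraries and 0.838 and 0.800 in the wild type libraries. Within bins 13 to 17 (10 strand-bins) it was 0.673 and 0.285 in the mutant libraries and 0.879 in each wild type library. Over all 36 strand-bins it was 0.125 and -0.185 in the mutant and 0.523 and 0.498 in wild type. These values are descriptions: the strand-bins of a library share its depth, the strands of a bin share their base composition, and bin 17 is short.

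**Figure D4:**
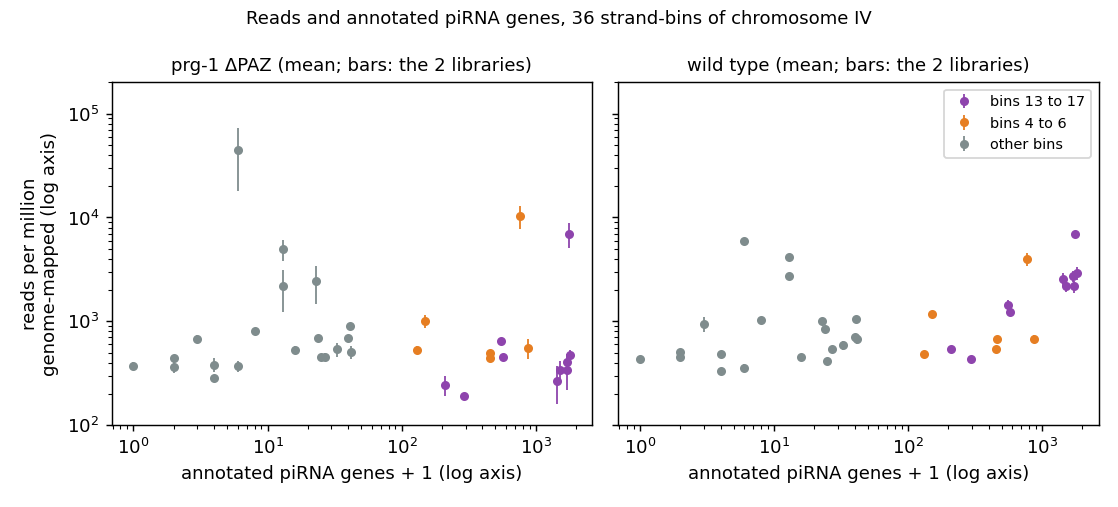
Mean RPM against the number of annotated piRNA genes plus 1 (both log axes) for the 36 strand-bins of chromosome IV, prg-1 ∆PAZ on the left and wild type on the right, with bars spanning the 2 libraries. In wild type the purple points of bins 13 to 17 climb with gene number, while in the mutant all but the strand-bin with mir-52 lie between 189.5 and 653.

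The deposited count of reads that match listed piRNAs, a table of its own, allows the bins to be set beside the piRNAs themselves. Sense piRNA reads were at 2599.6 and 1192 RPM in the mutant and 22068 and 16648 RPM in wild type. The 9 strand-bins of bins 13 to 17 without the one that holds mir-52 had 1.43 and 2.54 reads for each piRNA read in the mutant and 0.824 and 0.856 in wild type. In each mutant library these strand-bins held more reads than were counted for all sense piRNAs together, and in each wild type library fewer. Their mean in the mutant came to 20.8% of that in wild type, against 9.79% for the piRNA reads.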

How the data were processed

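Per the file headers, the authors counted reads in 1 Mb bins of ce11 by orientation, and separately per piRNA, and deposited both as raw counts. Another deposited sheet gave total, genome-mapped and piRNA reads per library. Sense was read as the plus strand and antisense as the minus strand. Bin counts of both strands summed to the genome-mapped reads, and 1 row holding the genome total was left out. The aligner was not given in the sources used here, nor the rule for multi-mapping reads, which bears on strand-bins with near-identical genes. Genes came from Ensembl release 115 (WBcel235, the ce11 assembly) and were assigned to the bin of their start.

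All 208 strand-bins were fitted with edgeR 4.0.16 (R 4.3.3) in a quasi-likelihood model of genotype, after filterByExpr, which removed none. Library sizes were genome-mapped reads or reads outside the largest strand-bin, without TMM. Benjamini-Hochberg adjustment ran over the 208, with a threshold of 0.05. The SE is the absolute log2 fold change divided by the square root of F. The fit was tested on simulated counts. Sums and ratios were compared by exact permutation over 6 arrangements. DESeq2 1.42.0, other scalings and filters, and omission of single libraries were alternatives. Named strand-bins were the 16 of the clusters and, of the others, the 3 with most reads and those with the largest called changes. Members, lists and tests were chosen with earlier results of these data known. Input and untagged controls were not analysed here.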

Additional observations from a re-analysis of the deposited data

How the results depend on the processing

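Per genome-mapped read, the 5 lower strand-bins of chromosome IV became 9 with median-of-ratios size factors, 10 with DESeq2 and 0 with the replicate number as a block, and 0 to 17 over the omissions of single libraries, while the 0 higher became 3 with DESeq2 and 0 to 4 over the omissions. Per read outside the largest strand-bin, the 6 lower became 0 to 32 over the omissions, and the 1 higher became 0 with TMM or median-of-ratios factors and 0 to 3 over the omissions. With the replicate block on that scale 5 were lower. The shared replicate numbers are not stated to pair samples, and the deviations of same-numbered libraries correlated at -0.0907 over 208 strand-bins and 0.271 over the 36 of chromosome IV. With 1 library left in a genotype, it was assumed to vary like the other genotype.

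For bins 4 to 6 the summed log2 difference turned to -0.23 without the strand-bin with most reads, -0.22 without strand-bins with miRNA genes, -0.23 on the minus strand alone and -0.30 for the median, and for the other bins to -0.34 without strand-bins with miRNA genes and -0.16 for the median. The value for bins 13 to 17 stayed between -2.53 and -0.78 and the cluster contrast between -2.37 and -0.15 over the alternatives run. Single strand-bins that were not called also turned. Per read outside the largest strand-bin, the plus strand of bin 4 was at -0.42, the minus strand of bin 11 to -0.36 and the plus strand of bin 14 to -0.62. Over the omissions of single libraries the plus strand of bin 8 was between -1.15 and 0.21, the minus strand of bin 11 between -0.11 and 0.56 and the plus strand of bin 14 between -0.42 and 0.36, which was at -0.031 with the replicate block. The causes of these turns were not tested. Depth did not limit counts of this size, but the bin counts do not separate the reads of piRNA, miRNA and other genes. The deposited counts per piRNA were not placed in bins here.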
